A study of Mus musculus with 8 samples.

Results

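The genes described here are the mouse zinc finger genes that the array names Zfp followed by digits only, as far as they were detected in B16 cells. A gene was taken when at least 1 of its probes was marked well above background on all 8 arrays, and it was then represented by the brightest such probe. Of 331 Zfp names on the array 246 met this rule, out of 14444 gene names detected on all 8 arrays and 18030 tested. Zfp36, which encodes a factor that destabilises messenger RNA and has another kind of finger, was left out. The members were thus chosen by their detection marks, so a gene that fell below background in any group could not be among them.

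B16 is a mouse melanoma line that makes pigment. The cells were grown in high-glucose medium with 5% fetal bovine serum, and total RNA was labelled with Cy3 and hybridised to 1-colour mouse arrays. The 4 groups held 2 biological replicates each: control cells labelled 0 h, cells given SEMA3E for 2 h, cells given SEMA3E for 8 h, and cells given cytochalasin D for 8 h. The semaphorin SEMA3E is a guidance protein that signals through plexin D1, and cytochalasin D caps growing actin filaments. The labels give the controls as non-targeted and state no vehicle, and the 8 h groups have no control of their own time, so treatment and time in culture cannot be told apart when they are set against control. Groups also lay in neighbouring positions of 1 slide.

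Most Zfp genes encode proteins with arrays of C2H2 fingers, in which a zinc ion holds a short loop that reads bases of DNA. Many of these proteins carry a KRAB domain, which recruits the corepressor Trim28 and, through it, the histone methyltransferase Setdb1, and they are best known for silencing retroelements. Others lack KRAB and act as activators, as cofactors or as RNA-binding proteins. The KRAB genes arose by repeated local duplication and lie in clusters, so their sequences resemble each other.

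Repeated sequence was found in the probes and in the promoters, and both are shown here. In a probe it bears on how the values can be read. Whether it comes from duplication was not tested. The coding sequence of the linker that joins neighbouring fingers recurs from gene to gene. A motif that allows any base at the degenerate positions of its codons, searched on the probe strand, stood in 5 of the 246 probes (2.03%), against 22 of the 18030 probes tested (0.122%). In 3 of the 60-base probes, as the files give them, capitals mark the match, with the gene on chromosome 7, 2 and 7 in this order.
Zfp14: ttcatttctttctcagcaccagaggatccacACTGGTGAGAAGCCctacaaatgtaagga
Zfp442: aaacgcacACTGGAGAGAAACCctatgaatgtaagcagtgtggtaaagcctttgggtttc
Zfp936: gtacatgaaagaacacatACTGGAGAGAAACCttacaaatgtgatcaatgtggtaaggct
The probes of 17 members shared a run of at least 20 bases with a probe of another name, and the longest such run was 55 bases, in Zfp652. These 17 included Zfp663 (33 bases, with BC053749), Zfp771 (33, with a probe listed by its probe ID), Zfp442 (31, with Zfp937), Zfp930 (30, with Gm10778) and Zfp534 (24, with 2210404O09Rik), and signal from a related transcript cannot be set apart in any of the 17.

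All 246 genes matched RefSeq, and 206 had a promoter of 300 bases there, 250 before and 50 after the start, in build GRCm38.p6. The core of the sequence bound by Zfp143, in which the 2 letters before the closing TCC may be any base, stood on 1 strand or the other in 36 of these 206 promoters (17.5%). The share was 2.15% over all 27025 promoters (581 held it) and 4.97% over the 8807 promoters of genes detected on all arrays (438 held it). All 36 matches lay upstream of the start, at a median of 40 bases from it and between 3 and 213 bases, and 24 stood on the strand opposite to the gene. In 33 of the 36 the letters CA followed directly. Windows of 30 bases are shown, read 5′ to 3′ on the strand that holds the match and with the core in capitals, to let the repeated form be seen.
Zfp458, chr13:67269157-67269186, plus strand: tgggACTACATTTCCcacaagtcagtgcaa
Zfp595, chr13:67332596-67332625, plus strand: agggACTACATTTCCcacaagtcagtgcga
Zfp429, chr13:67399823-67399852, plus strand: gcggACTACATCTCCcagaagtctgtgcga
Zfp72, chr13:74390867-74390896, plus strand: cgagACTACATTTCCcacaagtctgtgaga
Zfp260, chr7:30095033-30095062, minus strand: gtgaACTACATTTCCcagaagtctcagggg
Zfp189, chr4:49521140-49521169, minus strand: gcgaACTACATTTCCcggaatgcataggtc
Zfp1, chr8:111643403-111643432, minus strand: taggACTACAATTCCcataatgcctctgag
The first 4 lie on chromosome 13, where 11 of 18 member promoters held the letters and stay alike for several bases beyond them. On chromosome 7 the count was 18 of 61. A match is a description of the letters and shows no binding, and related promoters are not independent of each other.

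**Figure D1:**
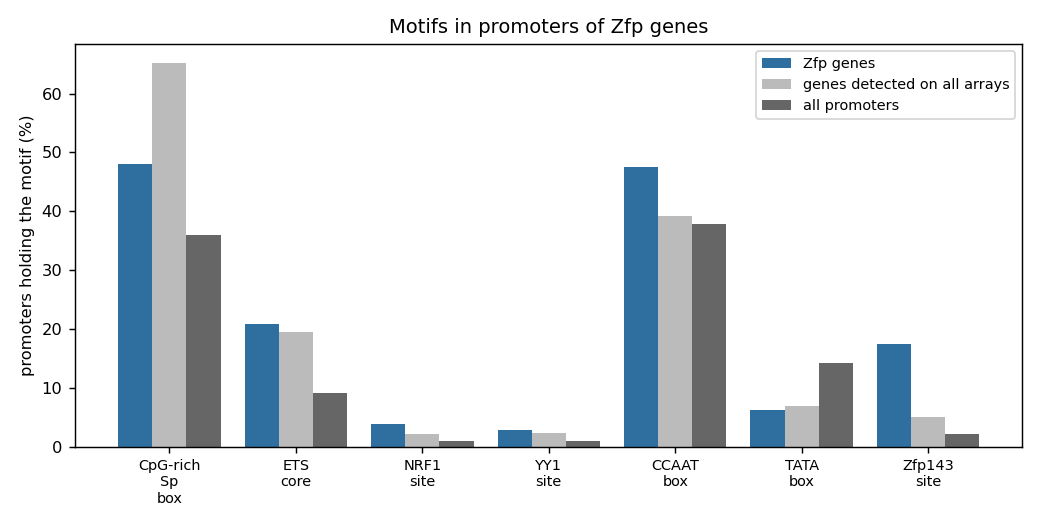
Share of promoters (%) that hold each of 7 motifs on either strand, for 206 Zfp genes, for 8807 genes detected on all arrays and for all 27025 promoters. The Zfp143 letters stand in 17.5%, 4.97% and 2.15%, while the ETS core CCGGAAG stands in 20.9%, 19.6% and 9.12%.

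The ETS core CCGGAAG was in 20.9% of Zfp promoters and 19.6% of promoters of detected genes, and the Sp box GGGCGG was in 48.1% and 65.2%. In the same order, the CCAAT box was in 47.6% and 39.1%, the NRF1 site in 3.88% and 2.18%, the YY1 site in 2.91% and 2.33%, and the TATA box in 6.31% and 6.94%. Also searched but not drawn were the E-box (8.74% and 10.6%) and the cyclic AMP response element (4.37% and 3.53%). The GC content of the Zfp promoters had a median of 55.7%, against 61% for detected genes and 52.7% for all promoters.

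Levels are log2 of the processed signal minus the array's 75th percentile over 18691 detected probes, so that 0 is that percentile and a step of 1 is 2-fold. The 246 Zfp probes had a median level of -3.20, against -1.87 for all genes detected on all arrays. Of them 21 (8.54%) had a mean above 0, where 28.1% of detected genes did. Their probes were poorer in GC, with a median of 38.3% against 43.3% for all genes tested. A level depends on the probe as well as on the transcript, so the order of the genes below is an order of probes. The median SD of a gene over the 8 arrays was 0.35 in the Zfp genes and in the detected genes.

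The brightest probe was that of Zfp622, which encodes a factor that acts in maturation of the large ribosomal subunit in human and yeast cells. It lay between 3.76 and 4.50 on the 8 arrays, with a mean of 3.99. Zfp637 had a mean of 2.43, and Zfp259, now named Zpr1 and known in yeast to bind a translation elongation factor, had a mean of 2.23. Next came Zfp628 (2.02), Zfp771 (1.93), Zfp330 (1.73), which encodes a nucleolar protein, Zfp706 (1.58) and Zfp191 (1.36). Zfp191, now Zfp24, is needed for myelination in mice.

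At the other end, the dimmest members were Zfp395 at -6.73, Zfp963 at -6.68, Zfp773 at -6.52 and Zfp54 at -6.39. Just outside the rule stood 13 Zfp genes detected on 7 arrays, of which the brightest were Zfp62 at -5.39, Zfp185 at -5.54, Zfp873 at -5.72 and Zfp790 at -5.98. The missing array was the SEMA3E 2 h replicate 2 array in 9 of the 13, the SEMA3E 2 h replicate 1 array in 2, and 1 of the later arrays in the other two. A further 33 Zfp genes were below background on every array. The SEMA3E 2 h arrays were the dimmest, with an unscaled 75th percentile over spots of 59.3 and 61.1, against 66.8 for cytochalasin D replicate 2 and at least 111.0 elsewhere.

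The labelled line was checked against markers. All 7 pigment cell markers were detected on all arrays, with summed levels of 90.9 to 137.0 on a linear scale where 1 is the 75th percentile. The leukocyte markers summed to 0.115 to 0.157 (3 of 6 detected on all arrays), fibroblast markers to 0.108 to 0.147 (2 of 5), endothelial markers to 0.0452 to 0.126 (2 of 4) and epithelial markers to 0.00792 to 0.0202 (0 of 5). The RNA is bulk, so fewer cells of a type and less RNA per cell cannot be told apart. Arrays did not always lie nearest to their own replicate over all genes: control replicate 2 and cytochalasin D replicate 1 were nearest to each other, with a Pearson r of 0.993 over 18030 genes.

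By their brightest probe, the steadiest Zfp genes were Zfp128 (SD 0.12 over 8 arrays), Zfp386 (0.12), Zfp93 (0.13) and Zfp142 (0.13). Zfp386 stayed between -0.40 and 0.02 by that probe, while its other detected probes differed from control by -0.52 and -1.06 at 2 h of SEMA3E. The second probe of Zfp142 differed from control by -0.63 at 2 h and by 0.72 at 8 h of SEMA3E. Steadiness was thus a trait of the probe shown. The most variable were Zfp384 (1.09), Zfp81 (1.07), Zfp148 (1.01) and Zfp444 (0.96). Zfp384, a nuclear matrix-associated transcription factor, was at -6.31 and -3.62 in control, at -6.30 and -6.12 in SEMA3E 2 h, at -4.49 and -4.28 in SEMA3E 8 h and at -4.04 and -4.80 in cytochalasin D. Its control arrays lay farther apart than any of its group means. Its level at 8 h of SEMA3E exceeded that at 2 h by 1.82 ± 0.77 (SE), with an adjusted p of 0.429.

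Zfp81 varied through 1 array. It was at -5.67 on the SEMA3E 2 h replicate 2 array, while its remaining values ran from -2.98 to -2.41. At 2 h of SEMA3E this probe thus differed from control by -1.73, while its other 2 detected probes gave 0.22 and -1.08. The same array stood alone for Zfp704 (-5.02, against -2.93 to -1.99), Zfp688 (-4.82, against -2.98 to -2.42) and Zfp580 (-4.84, against -3.45 to -1.96). These 3 were named after their values were seen. For Zfp688 the difference at 2 h was -0.93, and its second probe gave 0.33. That array also had 214 spots marked as outliers, where the others had 6 to 24.

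Differences between groups were tested with limma over all 18030 genes, with Benjamini-Hochberg adjustment and two-sided tests, and a gene was called at an adjusted p under 0.05. All 246 Zfp genes entered the test. With 2 arrays per group, a Zfp difference had a median standard error of 0.33, and the number of arrays limits its precision. The 3 comparisons with control share the same 2 control arrays.

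At 2 h of SEMA3E no Zfp gene passed limma's test, and neither did any of all genes tested (0%). The smallest adjusted p among the Zfp genes was 0.406. At an unadjusted p under 0.05, 7 Zfp genes were higher and 12 lower, which together is 7.72% of them, where 5.6% of all genes were higher and 3.88% lower. The median difference was -0.09, with 105 of 246 above 0, and over all genes it was 0.06. Both SEMA3E arrays lay above both control arrays in 27 Zfp genes and below them in 54, against backgrounds of 24.5% and 15.1% of all genes. The count of 0 depended on the background correction: after normexp, 16 of 246 Zfp genes were called, among 3527 of all 18030 genes.

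Zfp534 had the smallest p at 2 h. It was at -3.82 and -3.87 in control, -5.57 and -5.57 in SEMA3E 2 h, -4.11 and -4.44 in SEMA3E 8 h, and -4.69 and -5.60 in cytochalasin D. Both 2 h arrays lay below the arrays of control and of SEMA3E 8 h, and 1 cytochalasin D array lay as low. The difference at 2 h was -1.72 ± 0.34 (SE, adjusted p = 0.406).

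Zfp619 was at -4.74 and -5.06 in control, -6.27 and -6.06 in SEMA3E 2 h, -5.67 and -5.70 in SEMA3E 8 h, and -5.45 and -5.35 in cytochalasin D. All 6 treated arrays were below both controls. The 2 h difference was -1.26 ± 0.25 (adjusted p = 0.406), and a second detected probe of the gene gave -0.95. Zfp319 was at -3.55 and -3.23 in control and at -4.60 and -4.58 in SEMA3E 2 h, a difference of -1.20 ± 0.32 (adjusted p = 0.461).

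In the other direction, Zfp663 was at -2.90 and -2.79 in control and at -1.82 and -1.49 in SEMA3E 2 h. The other 4 arrays lay between, from -2.54 to -2.12, and the 2 h difference was 1.19 ± 0.27 (adjusted p = 0.421). Zfp52 differed by 1.35 ± 0.37 (adjusted p = 0.467), from -6.00 and -6.85 in control to -5.09 and -5.06. These are levels at which other Zfp genes missed detection on an array, and over the alternatives the difference ran from 0.46 to 1.78.

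Zfp568, a KRAB protein that in mice silences a placental transcript of Igf2, was tightly grouped. It was at -5.39 and -5.41 in control, -4.63 and -4.60 in SEMA3E 2 h, -5.40 and -5.42 in SEMA3E 8 h, and -5.63 and -5.67 in cytochalasin D. On these scaled levels the 2 h arrays stood above all others. The difference from control was 0.78 ± 0.23 (adjusted p = 0.489), and SEMA3E 8 h differed from SEMA3E 2 h by -0.79 ± 0.23 (adjusted p = 0.405). Its levels are near those of the Zfp genes just outside the rule, of which the brightest was at -5.39. Over the 21 alternatives the 2 h difference from control ran from 0.19 to 0.93.

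**Figure D2:**
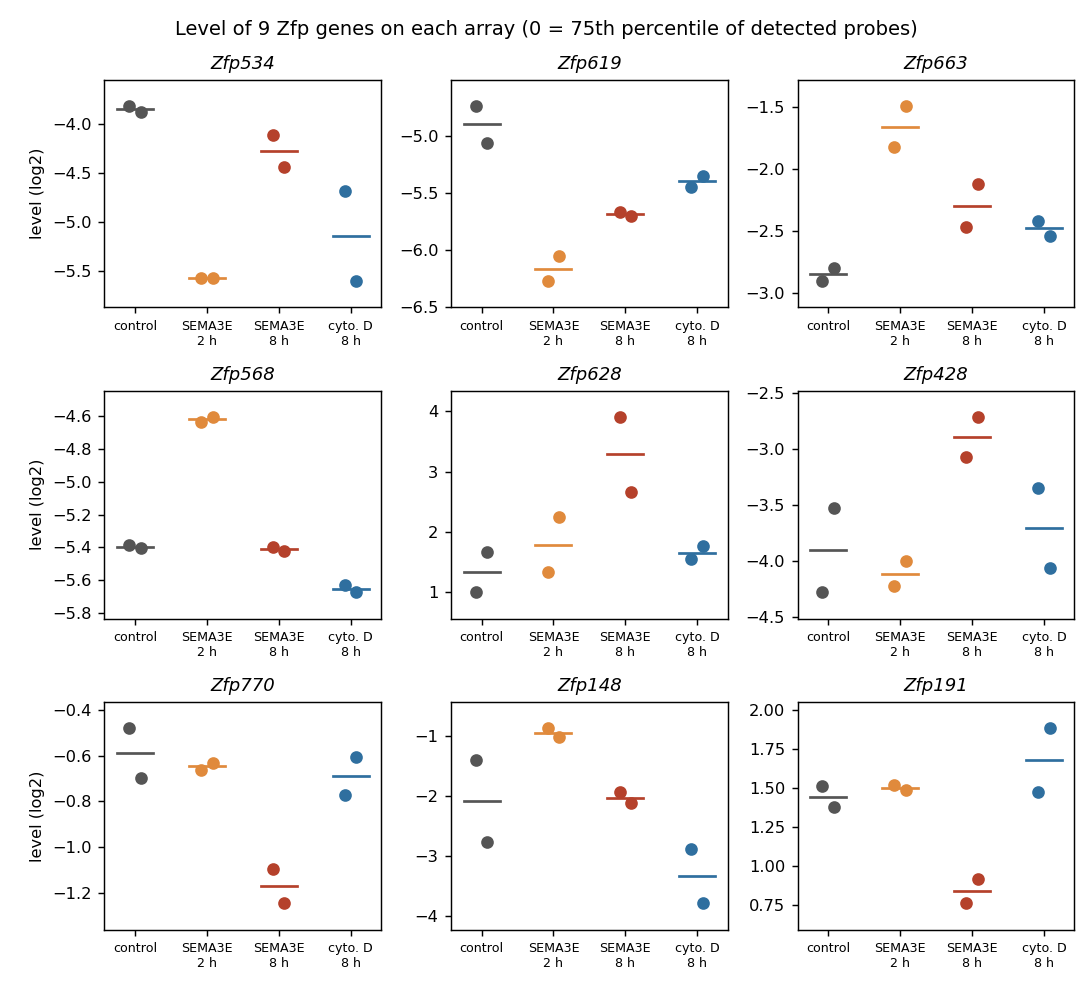
Level (log2, 0 is the 75th percentile of detected probes) of 9 Zfp genes on each of the 8 arrays, with points for arrays, short lines for group means of 2 arrays and a scale of its own for each gene. In Zfp568 the SEMA3E 2 h arrays at -4.63 and -4.60 lie above all others, in Zfp770 and Zfp191 the SEMA3E 8 h arrays are lowest, and in Zfp628 they are highest.

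At 8 h of SEMA3E 0 Zfp genes passed limma's test (smallest adjusted p = 0.634), and 1 of all genes did (0.00555%). At an unadjusted p under 0.05, 4 Zfp genes were higher and 4 lower, against backgrounds of 5.39% and 0.749%. The median difference was -0.05, where all genes had 0.12, and 104 of 246 were above 0. Without overlap between the groups, 24 were higher and 54 lower, against 25.1% and 12.4% of all genes.

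Zfp628 was at 1.0 and 1.66 in control, 1.34 and 2.24 in SEMA3E 2 h, 3.90 and 2.67 in SEMA3E 8 h, and 1.55 and 1.76 in cytochalasin D. The SEMA3E 8 h arrays were the highest, and differed from each other by more than the spread within any other group. The difference was 1.95 ± 0.49 (adjusted p = 0.634), but a second detected probe of the gene gave 0.13. Zfp428 differed by 1.01 ± 0.37 (adjusted p = 0.762), and its second probe gave 0.29. Zfp395, the dimmest member, differed by 1.53 ± 0.58 (adjusted p = 0.763) from controls at -8.31 and -6.46.

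Among those lower, Zfp770 was at -0.48 and -0.70 in control, -0.66 and -0.63 in SEMA3E 2 h, -1.10 and -1.25 in SEMA3E 8 h, and -0.77 and -0.61 in cytochalasin D. Its SEMA3E 8 h arrays were below the 6 others, with a difference from control of -0.58 ± 0.24 (adjusted p = 0.801). Zfp619 differed by -0.78 ± 0.25 (adjusted p = 0.706), while its second probe gave 0.29, the opposite sign. Zfp799 differed by -0.97 ± 0.38 (adjusted p = 0.779).

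Cytochalasin D at 8 h against control gave 0 Zfp genes past limma's test, as over all genes (0%). The smallest adjusted p of a Zfp gene was 0.9996. At an unadjusted p under 0.05, 1 was higher and 3 lower, against 0.743% and 1.71% of all genes. The median difference was 0.07 (0.03 over all genes), and 145 of 246 were above 0. Groups did not overlap in 38 Zfp genes that were higher and 31 that were lower, against 15.9% and 13% of all genes.

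Zfp148, which encodes a factor that binds GC-rich promoters, was at -1.39 and -2.75 in control, -0.86 and -1.01 in SEMA3E 2 h, -1.93 and -2.11 in SEMA3E 8 h, and -2.87 and -3.78 in cytochalasin D. Cytochalasin D was lowest and SEMA3E 2 h highest, but the controls lay on either side of the SEMA3E 8 h arrays. The difference under cytochalasin D was -1.26 ± 0.49 (adjusted p = 0.9996), and the deposited table, which combines spots by gene name, gave 1.42. At 2 h of SEMA3E the gene differed from control by 1.13 ± 0.49 (adjusted p = 0.518).

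Zfp534 differed by -1.30 ± 0.34 under cytochalasin D and Zfp944 by -0.94 ± 0.39. Zfp329 differed by 0.96 ± 0.39, with 0.61 from its second probe. Zfp579 differed by 0.72 ± 0.31 and Zfp771 by 0.51 ± 0.24. For each of these 5 the adjusted p was 0.9996.

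The 2 treatments at 8 h are matched in time. No Zfp gene passed limma's test between them (smallest adjusted p = 0.413), and 1 of all genes did (0.00555%). At an unadjusted p under 0.05, 12 Zfp genes were higher under cytochalasin D and 5 lower, where 2.28% of all genes were higher and 8.75% lower. The median Zfp difference was 0.11 and that of all genes -0.13, with 146 of 246 Zfp genes (59.3%) above 0 against 39.8% of all genes. Groups did not overlap in 78 that were higher and 46 that were lower, where all genes gave 19.6% and 32.7%.

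Zfp191 was at 0.76 and 0.91 in SEMA3E 8 h and at 1.48 and 1.88 in cytochalasin D. Its 4 remaining arrays were between 1.38 and 1.51. The difference was 0.84 ± 0.26 (adjusted p = 0.416). Zfp866 differed by 0.98 ± 0.31 (adjusted p = 0.422) and Zfp458, whose promoter window is shown above, by 1.03 ± 0.37 (adjusted p = 0.438).

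Zfp628 differed by -1.63 ± 0.49 (adjusted p = 0.413), with 0.13 from its second probe. Zfp719 differed by -1.02 ± 0.32 (adjusted p = 0.422) and Zfp148 by -1.30 ± 0.49 (adjusted p = 0.445).

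Between 8 h and 2 h of SEMA3E, 0 Zfp genes and 0% of all genes passed limma's test, with a smallest adjusted p of 0.396 in the Zfp genes. At an unadjusted p under 0.05, 14 were higher at 8 h and 8 lower, against 8.2% and 3.37% of all genes. Groups did not overlap in 53 that were higher and 46 that were lower, against 27.8% and 22.6%. The median difference was 0.06 for the Zfp genes and 0.08 for all genes. Zfp534 was higher by 1.29 ± 0.34 (adjusted p = 0.396), Zfp930 by 1.1 ± 0.30 (adjusted p = 0.405) and Zfp428 by 1.22 ± 0.37 (adjusted p = 0.409). The second probes of Zfp930 and Zfp428 gave smaller differences of 0.29 and 0.27. Zfp799 was at -5.52 and -5.70 at 2 h and at -7.56 and -6.48 at 8 h, a difference of -1.41 ± 0.38 (adjusted p = 0.401). Zfp1 differed by -0.90 ± 0.28 (adjusted p = 0.409).

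**Figure D3:**
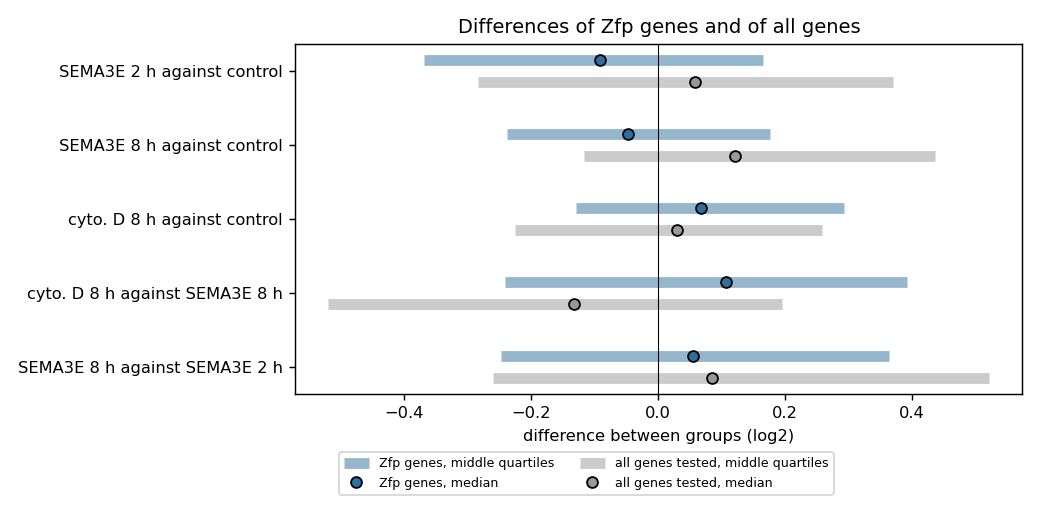
Differences between groups (log2) in 5 comparisons, with points for medians and bars from the lower to the upper quartile, for 246 Zfp genes and for all 18030 genes tested. The Zfp median lies below that of all genes in both SEMA3E comparisons with control (-0.09 against 0.06, and -0.05 against 0.12) and above it between cytochalasin D and SEMA3E at 8 h (0.11 against -0.13).

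Set against all genes, the Zfp genes had a median difference lower by 0.15 at 2 h of SEMA3E and by 0.17 at 8 h, and higher by 0.24 between cytochalasin D and SEMA3E at 8 h. The sign of each of these 3 values was kept in all 21 alternative settings, but some of the settings could not change them. A scaling constant per array cancels, and a replicate block or another estimate of the spread leaves the differences as they were. Leaving out an array of a group outside a comparison also changes no difference in it. For cytochalasin D against control the value was 0.04 and its sign held in 17 of the 21, and for SEMA3E 8 h against 2 h it was -0.03 with 16 of 21. All genes tested include genes not detected on every array, which the Zfp genes had to be. The 14444 genes detected on all arrays had medians of 0.06 at 2 h of SEMA3E and 0.08 at 8 h. They had -0.07 between the treatments at 8 h. For 8 h against 2 h they had 0.02, below the Zfp median of 0.06. These are descriptions of medians over genes, which are not replicates. In the 5 comparisons, in the order given above, 7.72%, 3.25%, 1.63%, 6.91% and 8.94% of Zfp genes had an unadjusted limma p under 0.05. For genes detected on all arrays the shares were 8.14%, 3.45%, 1.71%, 8.31% and 9.49%.

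Array by array, the median deviation of the Zfp genes from their own means, less that of all genes, was 0.05 and 0.09 in the controls, -0.12 and -0.07 in SEMA3E 2 h, -0.16 and -0.07 in SEMA3E 8 h, and 0.07 and 0.15 in cytochalasin D. The 4 SEMA3E arrays were thus below the 4 others. With the trend over probe GC removed, control replicate 1 moved to -0.04 and the groups overlapped, as they did with the deposited table, where that array was at -0.03. Of 11 alternatives that gave this value, 8 kept the 4 SEMA3E arrays lowest, and the third exception was normexp with quantile normalization. Those 8 include other scaling constants per array, which cancel in this value and could not change it. Set against the genes detected on all arrays, the SEMA3E arrays ran from -0.13 to -0.02 and the others from 0.04 to 0.13, with 7 of the 11 alternatives keeping that order. Those 7 include the same scaling constants and the other filters, which leave these values as they were and so could not break the order. It was lost after normexp, with a gene's probes averaged, with the deposited table and with the GC trend removed. The array pattern, with the SEMA3E arrays lowest, was noticed in the data and not planned. Deviations of the Zfp genes correlated with probe GC by -0.42 on control replicate 1 and by 0.29 on SEMA3E 8 h replicate 2 (Pearson r over 246 genes), and the part of probe GC in the pattern beyond this adjustment was not tested.

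**Figure D4:**
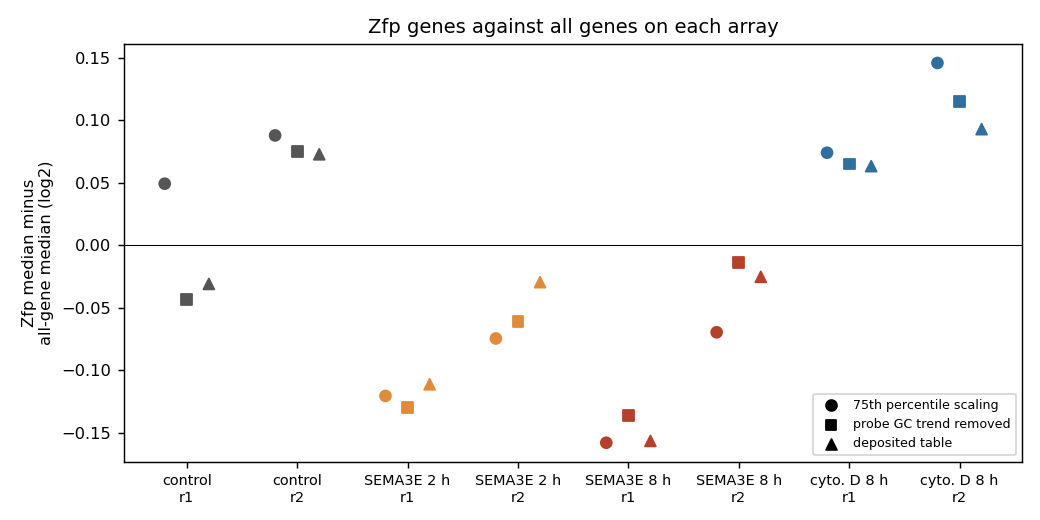
Median deviation of the Zfp genes from their own means over the 8 arrays, less that of all genes (log2), on each array, for the scaling used here, after removal of the probe GC trend and for the deposited table. With the scaling used here the SEMA3E arrays lie between -0.16 and -0.07 and the others between 0.05 and 0.15, while control replicate 1 falls below 0 in the other two.

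Other finger families were set beside the Zfp genes. At 2 h and 8 h of SEMA3E against control, all genes tested had medians of 0.06 and 0.12. Zbtb genes had -0.20 and -0.04, and Zscan and Zkscan genes had -0.05 and 0.05. These medians lay below those of all genes, as the Zfp medians did. Klf genes had 0.22 and 0.21, which lay above. Between cytochalasin D and SEMA3E at 8 h, the 35 Zbtb genes tested had a median difference of -0.07, the 22 Zscan and Zkscan genes 0.17 and the 14 Klf genes -0.53. Of the genes tested, 27 Zbtb, 13 Zscan and Zkscan and 10 Klf genes were detected on all arrays, which every Zfp gene had to be. No test was made between these families.

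In the 63 Zfp genes with more than 1 detected probe, the differences of the brightest and the second probe were set side by side. At 2 h of SEMA3E the brightest and the second probe had the same sign in 31 of 63, with a Pearson r of 0.02 over genes and a median gap of 0.53. At 8 h they did so in 40 of 63, with r of 0.30 and a gap of 0.28. The counts were 34 for cytochalasin D against control, 36 for cytochalasin D against SEMA3E 8 h and 31 for SEMA3E 8 h against 2 h. The median gap was 0.27 and 0.38 for cytochalasin D against control and against SEMA3E 8 h, and 0.57 for SEMA3E 8 h against 2 h. No Zfp gene was called, and where a true difference is near 0 the sign is set by noise. The counts therefore cannot show how well a probe stands for its gene. Mean levels of the second probes ran from -6.24 (Zfp229) to 1.52 (Zfp259), so some were nearly as dim as the dimmest members.

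**Figure D5:**
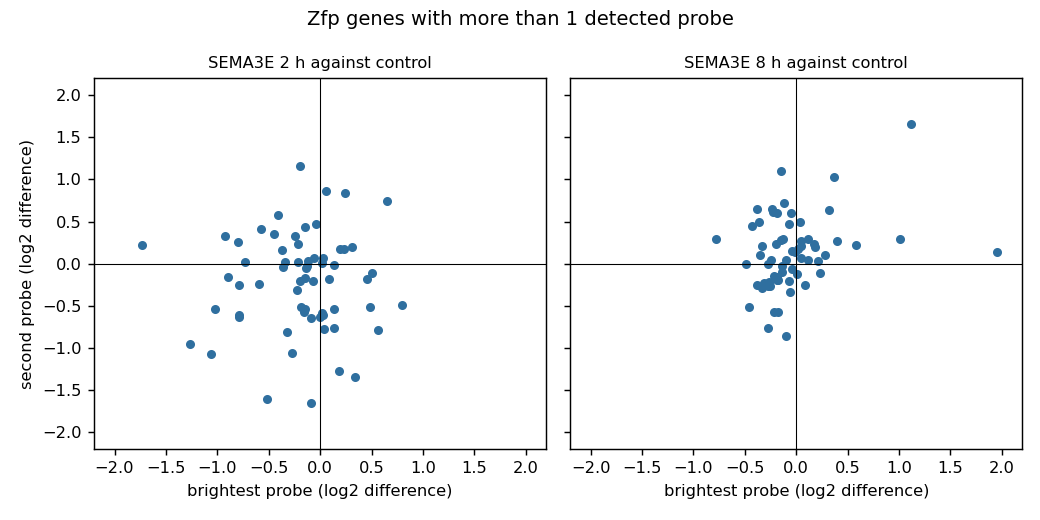
Difference from control (log2) of the brightest probe and of the second probe in 63 Zfp genes with more than 1 detected probe, for SEMA3E at 2 h and at 8 h. The signs match in 31 and 40 of 63 genes, and the point at the far right of the 8 h plot is Zfp628, with 1.95 and 0.13.

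By known role, the KRAB proteins with a known target were represented by 5 members, Zfp568, Zfp809, Zfp932, Zfp961 and Zfp429. Zfp809 silences murine leukaemia virus in mouse embryonic cells. Their levels ran from -5.27 to -1.11, and their median difference was 0.24 at 2 h of SEMA3E, 0.06 at 8 h and -0.07 under cytochalasin D, where all genes tested had 0.06, 0.12 and 0.03. None passed the test, and of these 5 members only Zfp568 was at an unadjusted p under 0.05, at 2 h against control and at 8 h against 2 h of SEMA3E. Other genes of the same list fell outside the rule of detection on all arrays. Among them Zfp708, detected on 6 arrays, differed by -1.61 at 2 h of SEMA3E (limma, unadjusted p = 0.011, adjusted p = 0.489) and by 1.33 for 8 h against 2 h (unadjusted p = 0.025, adjusted p = 0.413), each with the sign opposite to that of Zfp568. Zfp57 and Zfp445, which protect imprinted methylation in mice, were detected on 4 and 7 arrays. Between cytochalasin D and SEMA3E at 8 h they differed by -1.73 and -1.33 (unadjusted p = 0.039 and 0.043, each with an adjusted p of 0.448).

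The 10 members listed here as RNA and ribosome factors had median differences of 0.03 at 2 h of SEMA3E and 0.00 both at 8 h and under cytochalasin D. Zfp346, which binds double-stranded RNA, was at -4.72 and -3.59 in control and at -3.28 and -2.95 in SEMA3E 8 h, a difference of 1.04 ± 0.42 (adjusted p = 0.784), and it exceeded the 2 h level by 1.06 ± 0.42 (adjusted p = 0.42). Zfp326, part of a complex that couples splicing to elongation in human cells, was at 0.43 and 0.26 at 2 h and at -0.60 and -0.38 at 8 h, a difference of -0.84 ± 0.27 (adjusted p = 0.409). Zfp830 was at -2.70 and -2.62 in SEMA3E 8 h and at -2.17 and -1.66 in cytochalasin D, a difference of 0.75 ± 0.29 (adjusted p = 0.445). Zfp598, the ubiquitin ligase that marks collided ribosomes in human cells, stayed between -3.09 and -2.12.

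Among the other regulators of transcription and chromatin, 23 were members and 0 passed limma's test, with medians of -0.13 at 2 h of SEMA3E, -0.00 at 8 h and 0.04 under cytochalasin D. Zfp143, the factor named with the promoter letters, was at -2.48 and -1.84 in control, -2.67 and -2.06 in SEMA3E 2 h, -2.37 and -2.23 in SEMA3E 8 h, and -1.82 and -2.26 in cytochalasin D. Its groups overlapped. The 36 Zfp genes with those letters had a median difference of -0.16 at 2 h of SEMA3E, where the 170 without them had -0.06. At 8 h of SEMA3E the medians were -0.07 and -0.06, and under cytochalasin D 0.12 and 0.05. They were 0.19 and 0.12 between cytochalasin D and SEMA3E at 8 h, and 0.09 and 0.04 for SEMA3E 8 h against 2 h. Genes with the letters were also dimmer, with a median level of -4.47 against -2.91, and no test was made between the 2 sets.

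Zfp423, a cofactor of Smad proteins and a factor of preadipocytes in mice, was at -4.76 and -4.87 in SEMA3E 8 h and at -4.26 and -3.60 in cytochalasin D, a difference of 0.89 ± 0.32 (adjusted p = 0.439), though the deposited table gave -0.23. Zfp292 differed by 0.96 ± 0.41 at 2 h of SEMA3E (adjusted p = 0.518). Zfp609, which works with the cohesin loader, differed by 0.87 ± 0.44 at 8 h (adjusted p = 0.842).

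The machinery that KRAB proteins recruit was measured through 26 genes, all detected on all arrays, and none passed limma's test in any comparison. At an unadjusted p under 0.05, 1 of the 26 was lower in each comparison with control and 0 higher. Of all genes, 3.88% were lower at 2 h of SEMA3E, 0.749% at 8 h and 1.71% under cytochalasin D, and 5.6%, 5.39% and 0.743% were higher. The corepressor Trim28 was at 0.02 and 1.44 in control, 0.46 and 0.71 in SEMA3E 2 h, 0.86 and 1.29 in SEMA3E 8 h, and 1.22 and 0.12 in cytochalasin D, so that its controls spanned the other arrays. Setdb1 lay between -3.96 and -2.93 on all arrays. The median difference of the 26 genes was -0.15 at 2 h of SEMA3E, -0.12 at 8 h, 0.19 under cytochalasin D and 0.25 between the treatments at 8 h. All genes tested had 0.06, 0.12, 0.03 and -0.13 in these comparisons.

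Hdac2, a histone deacetylase, had the smallest p of these genes in both SEMA3E comparisons with control. It was at -3.56 and -3.07 in control, -5.06 and -4.63 in SEMA3E 2 h, -4.77 and -3.79 in SEMA3E 8 h, and -3.27 and -3.51 in cytochalasin D. All 4 SEMA3E arrays were below the 4 others. The differences were -1.53 ± 0.39 at 2 h (adjusted p = 0.455), -0.97 ± 0.39 at 8 h (adjusted p = 0.784) and 0.89 ± 0.39 for cytochalasin D against SEMA3E at 8 h (adjusted p = 0.458).

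Trim24, a relative of Trim28, differed by -1.43 ± 0.65 at 2 h and the remodeller Atrx by -1.34 ± 0.63, each with an adjusted p of 0.518. Both rested on the SEMA3E 2 h replicate 2 array, at -2.19 and -4.57, since replicate 1 was at 0.12 and -2.38. Ehmt1, a histone methyltransferase, differed by -0.54 ± 0.32 at 8 h of SEMA3E and the remodeller Smarcad1 by -0.45 ± 0.30. Under cytochalasin D, Pphln1, a subunit of the HUSH silencing complex, differed by -0.87 ± 0.34, Ehmt2 by 0.55 ± 0.27 and Morc2a by 0.54 ± 0.29.

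Between the treatments at 8 h, Hdac1 differed by 0.62 ± 0.26 (adjusted p = 0.453) and Pphln1 by -0.79 ± 0.34 (adjusted p = 0.458). From 2 h to 8 h of SEMA3E, the histone chaperone Daxx differed by -0.59 ± 0.28, Cbx5, which encodes a heterochromatin protein, by 1.01 ± 0.48, and Trim24 by 1.36 ± 0.65, with adjusted p of 0.44, 0.441 and 0.446.

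The Zfp genes were spread unevenly over the genome, with 69 on chromosome 7, 30 on chromosome 17 and 21 on chromosome 13. There were 35 runs of members that neighbour each other in RefSeq, and they held 106 of the 246. The longest, of 12 genes on chromosome 7, ran from Zfp940 through Zfp568 and Zfp260 to Zfp146, with mean levels from -6.20 to -0.36. Across the 8 arrays, the pattern of 71 neighbouring pairs correlated with a median r of 0.05, where all 30135 pairs of Zfp genes had 0.08. Neighbours were thus no more alike than other pairs by this measure.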

How the data were processed

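Intensity values came from the scanner files of 8 arrays, which the authors deposited. Per the file headers the scanner software was Agilent Feature Extraction 11.5.1.1, whose processed signal has background subtracted, and the submitters' processing notes name the same tool. The deposited table, with a linear intensity per gene name and no stated rule for combining spots, was used as an alternative. Control spots were left out, outlier spots were set to missing and spots of a probe were averaged. The levels are log2 values computed here from the deposited intensity, minus each array's 75th percentile over 18691 probes well above background on all 8 arrays. A probe with 2 spots counted as above background with at least 1 of them. Requiring values on all arrays and detection on both arrays of at least 1 group left 24668 probes and 18030 gene names, each represented by its brightest probe, taken first from those detected on all arrays. Of the 246 members, 235 matched RefSeq by accession and the rest by name, and 3 have a newer symbol.

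Group means were fitted with limma 3.58.1 in R 4.3.3, with 4 residual and 3.41 prior degrees of freedom, without a replicate block. The fit was also run on simulated data with independent normal noise. These held no shift of a whole array and no outlying array, so the run cannot show how the fit deals with either. Promoters came from RefSeq, build GRCm38.p6, with the first listed start of a gene, and promoter motifs were searched on both strands. The files' headers name mm9, and no position from that build is given. Figures were drawn with matplotlib 3.10.9.

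The members, the gene lists and the motifs were chosen with earlier results of these data known. Named in the text were, by rule, the 3 Zfp genes with the smallest p in each direction of each comparison, the 8 brightest and 4 dimmest probes, the 4 largest and 4 smallest SDs, members of the role lists, and among the silencing genes Trim28, Setdb1 and the 3 with the smallest p. Alternatives were other scalings, background correction by normexp with an offset of 50, other filters and probe summaries, the deposited table, removal of the probe GC trend, a replicate block and leaving out each array. The labels call replicates biological, and nothing says how separate the cultures were.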

Additional observations from a re-analysis of the deposited data

Results flagged for a closer look

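In 22 of the 246 Zfp genes (8.94%) both arrays of 1 treatment lay above both controls and both arrays of another lay below them, against 9.83% of all genes tested. The count is thus near that of all genes. Among the Zfp genes with differences given above, 7 did so.

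Zfp799 differed from control by 0.44 at 2 h of SEMA3E, by -0.97 at 8 h and by -0.76 under cytochalasin D. Zfp719 differed by 0.76 at 2 h, 0.61 at 8 h and -0.40 under cytochalasin D, and Zfp866 by -0.47, -0.62 and 0.36. Zfp81 differed by -1.73, -0.25 and 0.099, the first of these set by 1 array. In 3 more the opposite sides were SEMA3E at 2 h and cytochalasin D. Zfp1 differed from control by 0.80 and -0.53 there, Zfp148 by 1.13 and -1.26, and Zfp568 by 0.78 and -0.26. All these differences share the 2 control arrays.

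SEMA3E at 8 h against 2 h gave -1.41 ± 0.38 for Zfp799 (limma, adjusted p = 0.401). Cytochalasin D against SEMA3E at 8 h gave -1.02 ± 0.32 for Zfp719 and 0.98 ± 0.31 for Zfp866, each with an adjusted p of 0.422, and 0.35 ± 0.74 for Zfp81 (adjusted p = 0.872). None of these 4 passed, and all 4 use the SEMA3E 8 h arrays. Cytochalasin D against SEMA3E at 2 h, which differ in agent and in time, was not tested.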

How the results depend on the processing

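Of 21 alternatives, 19 called 0 Zfp genes in every comparison, the replicate block included; same-numbered arrays were not paired, since their deviations correlated between -0.15 and 0.14. After normexp background correction 16 of 246 Zfp genes were called at 2 h of SEMA3E, 15 of them higher, among 3527 of all 18030 genes. The 16 included Zfp663 (0.93), Zfp52 (1.12), Zfp568 (0.93), Zfp292 (1.07) and Zfp442 (-0.80). These values hold a shift of whole arrays. After normexp the median deviation of all genes was -0.26 and -0.13 in the controls and 0.21 and 0.34 in SEMA3E 2 h. Without SEMA3E 2 h replicate 1, which leaves the lone array that stood apart for these genes and assumes that it varies like other groups, 3 were called lower at 2 h (Zfp81, Zfp688, Zfp704, among 393 of all genes) and 4 higher at 8 h than at 2 h (the same 3 and Zfp580, among 443). Trim24 was called in both and Atrx at 2 h. Leaving out 1 array at a time thus gave 0 to 3 and 0 to 4 calls there, and 0 in the other comparisons.

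Median Zfp differences moved with the scaling. At 2 h of SEMA3E (-0.09) the median was -0.68 with the median of all probes, 0.25 after normexp and 0.0010 after normexp with quantile normalization, and -0.19 to 0.0027 without 1 array. At 8 h (-0.05) it was -0.26 with the 75th percentile of all probes, -1.21 with their median and -0.20 after quantile normalization, and -0.14 to 0.021 without 1 array. Under cytochalasin D (0.07) it was -0.11 with the median of all probes and 0.22 after normexp, and -0.040 to 0.18 without 1 array. Between the treatments at 8 h (0.11) it was 0.36, 1.09 and 0.28 with those 3 scalings, 0.22 after normexp, -0.0094 when the probes of a gene were averaged, 0.0091 with the deposited table and 0.20 with the GC trend removed, and -0.0056 to 0.22 without 1 array. For 8 h against 2 h (0.06) it was -0.20, -0.51 and -0.14 with the 3 scalings, -0.30 after normexp and -0.14 with quantile normalization added, and -0.050 to 0.14 without 1 array.

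Leaving out 1 array turned 1 of 62 named differences and moved 36 others by over 1.5 times. The one turned was Zfp688 at 2 h, from -2.03 without SEMA3E 2 h replicate 1 to 0.18 without replicate 2, where Zfp81 went from -3.08 to -0.39. With that sign change, 14 of 1298 values of named genes changed sign. Many of the 1298 could not change. A replicate block, another estimate of the spread or leaving out an array outside the comparison leaves a difference as it was. With the median of all probes the sign changes were Zfp428 (-0.15), Zfp346 (-0.12) and Zfp609 (-0.29) at 8 h of SEMA3E, and Pphln1 (0.19) between the treatments. With the deposited table they were Zfp148 (1.42) and Zfp944 (0.21) under cytochalasin D, and Zfp866 (-0.14) and Zfp423 (-0.23) between the treatments. After normexp they were Zfp619 (0.20) and Zfp708 (0.39) at 2 h, Zfp534 (-0.0026) and Zfp708 (-0.41) for 8 h against 2 h, and Zfp57 (0.21) between the treatments. The cause was not tested.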
